A study of Drosophila melanogaster with 48 samples.

Results

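CG5493, CG34190, CG43740 and CG14989 are 4 protein-coding genes of Drosophila melanogaster, out of 17257 genes measured, for which the annotation used here gives a number in place of a name and none of the sources used here gives a function. They were chosen by their measured values: CG5493, CG34190 and CG43740 led the genes enriched in cells of the intermediate column at 4-6h after egg laying, and CG14989 was among the leading genes of the ventral column at the same time. All values of these 2 comparisons for the genes chosen there are therefore a description, without a test. Ranks are by fitted log2 fold change among protein-coding genes that passed a filter. The filter asked for an enriched call and a positive mean of at least 10 CPM (both defined below), with positive libraries above the negative ones. It left 169 genes in the 4-6h Ind and 91 in the 4-6h Vnd comparison. In the 4-6h Ind comparison CG5493 ranked 1, CG34190 ranked 2 and CG43740 ranked 3 (log2 fold change 4.35 ± 0.46, SE). The next gene in rank, ey (4.09 ± 0.4), is not among the 4 genes. In the 4-6h Vnd comparison Vmat ranked 1 (3.33 ± 0.51), CG14989 ranked 2 (2.99 ± 0.41) and wrapper (2.74 ± 0.34) was the next gene in rank. Neither Vmat nor wrapper is among the 4 genes.

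The neurogenic ectoderm of the fly embryo is divided along the dorsoventral axis into columns, each marked by its own homeodomain transcription factor. Vnd is made in the ventral column, next to the midline, and Ind in the intermediate column beside it. Neuroblasts delaminate from the columns and divide to give ganglion mother cells, whose daughters become neurons and glia. Genes switched on in one column are candidates for a role in its identity, and many column genes are used again in differentiated neurons.

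RNA was sequenced from 48 libraries of sorted cells in 24 groups of 2 replicates. Embryos of 5 lines, all in a y1 w1118 background, were dissociated, and the cells were fixed with formaldehyde, stained and sorted into marker-positive (pos) and marker-negative (neg) fractions, so that each of 12 comparisons holds 4 libraries. Ind cells were sorted by a reporter under the ind_1.4 enhancer, which was dsRed at 4-6h (ind_1.4::dsRed) and GFP at 6-8h (ind_1.4::GFP), and Vnd cells by vnd_743::dsRed at both times. An enhancer reporter marks the cells in which that enhancer is active, and its fluorescent protein can outlast the transcription it reports. Neuroblasts with ganglion mother cells (Pros, 4-6h and 6-8h), neurons (Elav) and glia (Repo, both 6-8h, 8-10h and 18-22h) were sorted by antibodies against the endogenous protein. Pros cells at both times, Repo cells at 8-10h and both cell types at 18-22h came from vnd-lexA/VC:FNLDD embryos, Elav cells at 8-10h from yw embryos and Repo cells at 6-8h from ind_1.4::GFP embryos. At 6-8h Elav replicate 1 was ind_1.4::GFP and replicate 2 was yw. Line and time cannot be told apart for Ind and Repo between 6-8h and the neighbouring times, nor for Elav between 8-10h and 18-22h.

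Total estimated reads ranged from 18120862 to 113452420 per library, and the correlation of log2 CPM (reads scaled to the library total) between the replicates of a group, across genes, from 0.919 to 0.994. Genes of chemosensory receptors (Or, Gr and Ir), used in sense organs, were not at the same level in all libraries, and their median over 159 autosomal genes ran from 0.0233 to 18.7 TPM (abundance corrected for transcript length and scaled to the library). Over the 48 libraries the correlation of log2(TPM + 1) with the log2 receptor level was 0.0656 for CG5493, 0.207 for CG34190, 0.23 for CG43740 and 0.405 for CG14989, a description only. The sorting markers followed the labels of the column libraries. The ind gene had 147 and 172 TPM in 4-6h Ind-pos cells against 30.4 and 34.6 TPM in Ind-neg cells, and vnd had 90.4 and 97.7 TPM in 4-6h Vnd-pos cells against 23.9 and 27.2 TPM in Vnd-neg cells. In bulk RNA of sorted cells, fewer cells of a type and less RNA per cell cannot be told apart.

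The genes lie on 3 chromosome arms (positions 1-based, assembly BDGP6). CG5493 (FBgn0034364) spans 2R:18616692-18619328 on the minus strand, with 4 transcripts of 3 exons that share a reading frame of 238 codons. CG34190 (FBgn0085219) is a single-exon gene of 1100 bases at 2R:16946455-16947554, minus strand, with 102 codons. CG43740 (FBgn0263997, X:10333652-10347794, plus strand) has 3 transcripts of 4 exons and reading frames of 272 to 496 codons. CG14989 (FBgn0035495, 3L:4087581-4092706, plus strand) has 4 transcripts with 171 to 246 codons. Of these, CG5493 overlaps CG5327, CG34190 overlaps CG15614 and CG14989 overlaps Gad1, the glutamate decarboxylase that makes the transmitter GABA, each on the opposite strand. The libraries were stranded and were counted by strand.

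CG5493 was low in nearly all groups and high in 4-6h Ind-pos cells, with 19.8 and 42.1 TPM against 0.746 and 1.01 TPM in Ind-neg cells. The mean over the positive libraries (30.9 ± 15.8 TPM, SD, n = 2) was 35.3 times that of the negative libraries (0.876 ± 0.185 TPM), and the fitted log2 fold change was 5.03 ± 0.95. Replicate 2 was the higher of the positive libraries, and without it the fitted value was 4.21. The next group in order, 6-8h Ind-pos, had 5.57 and 8.2 TPM, below both 4-6h libraries. The ranges then overlapped, so that the order of 6-8h Ind-pos, 8-10h Repo-neg, 8-10h Repo-pos, 4-6h Vnd-pos and 8-10h Elav-neg cells (means of 6.88 to 5.15 TPM) is not set by these libraries. In 8-10h Repo-pos and 4-6h Vnd-pos cells CG5493 lay below the receptor level in each library.

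CG34190 had the same leading group. It reached 39.0 and 51.6 TPM in 4-6h Ind-pos cells and 1.93 and 1.25 TPM in Ind-neg cells, a ratio of means of 28.5 and a fitted log2 fold change of 4.72 ± 0.84. The second group was not a column but the marker-negative cells of the 8-10h Elav sort, with 16.4 and 27.0 TPM. Then came 6-8h Ind-pos cells with 16.3 and 15.9 TPM and 4-6h Vnd-pos cells with 15.2 and 15.5 TPM, which lay close together in TPM. With CPM and its TMM factors in place of TPM, 6-8h Ind-pos cells (14.2 ± 2.2 CPM) stood before 8-10h Elav-neg cells (9.61 ± 0.311 CPM). They also stood further above 4-6h Vnd-pos cells (5.0 ± 0.816 CPM). The factors were 0.5697 and 0.6957 for 6-8h Ind-pos, 0.8174 and 1.3863 for 8-10h Elav-neg and 1.644 and 1.3005 for 4-6h Vnd-pos libraries. This order depends on the scaling.

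CG43740 was high in 2 kinds of cells. In 4-6h Ind-pos cells it had 37.7 and 60.7 TPM, against 2.57 and 2.1 TPM in Ind-neg cells, a ratio of means of 21.1 and a fitted log2 fold change of 4.35 ± 0.46. In 18-22h Elav-pos cells it had 52.7 and 42.4 TPM, a range that overlapped that of 4-6h Ind-pos cells. The 6-8h Ind-pos cells followed with 38.8 and 35.3 TPM. The other 21 groups had means of 18.3 TPM or less, and 4-6h Ind-neg cells had the lowest.

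CG14989 had the highest level per length that any of the 4 genes reached in a group, and that level lay in neurons, not in the ventral column. It had 287 and 300 TPM in 4-6h Vnd-pos cells and 35.8 and 36.4 TPM in Vnd-neg cells, a ratio of means of 8.14 and a fitted log2 fold change of 2.99 ± 0.41. In 18-22h Elav-pos cells it reached 1620 and 1850 TPM, in 6-8h Elav-pos cells 678 and 626 TPM and in 8-10h Elav-pos cells 389 and 515 TPM. None of these overlapped the 4-6h Vnd-pos range, and the latest neurons had 5.91 times the mean of 4-6h Vnd-pos cells. The lowest level was that of 6-8h Elav-neg cells with 8.13 and 2.03 TPM.

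**Figure D1:**
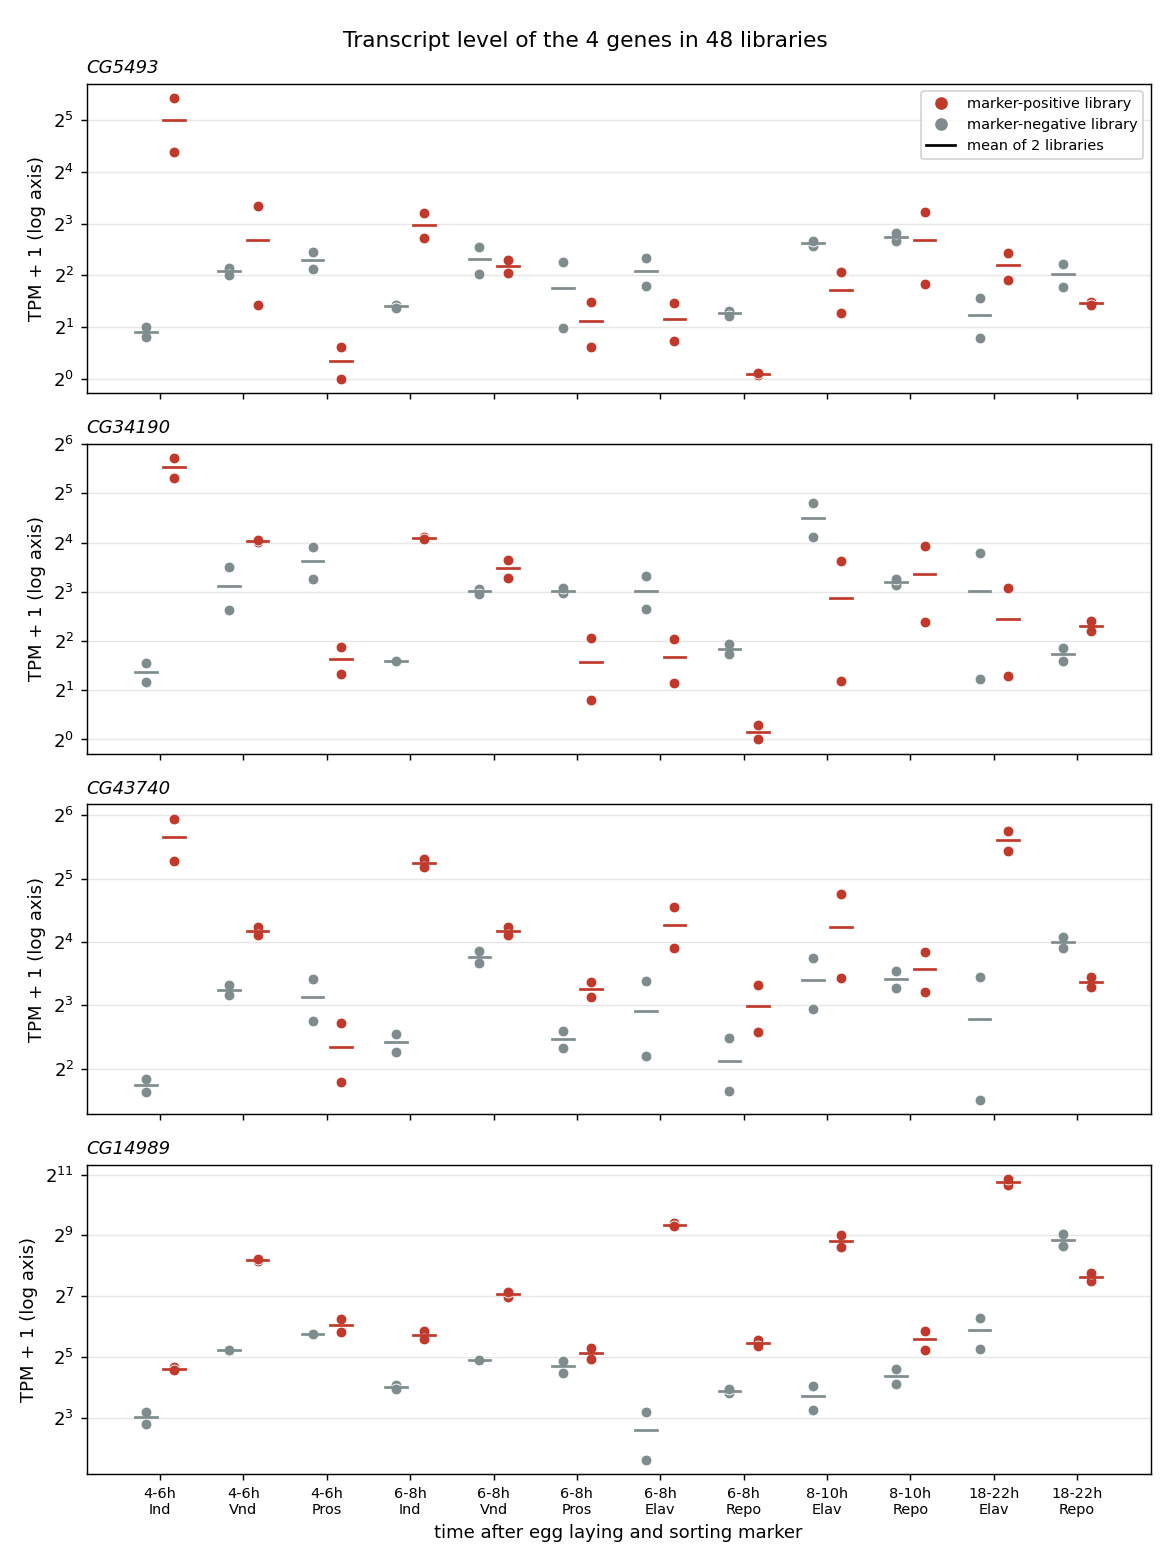
Level of the 4 genes in all 48 libraries, in TPM + 1 on a log axis, by comparison. Each point is a library, bars are means of 2 libraries, red is marker-positive and grey marker-negative; CG5493, CG34190 and CG43740 are highest in 4-6h Ind-pos cells (means of 30.9, 45.3 and 49.2 TPM), and CG14989 in 18-22h Elav-pos cells (mean of 1730 TPM).

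Outside the comparisons that chose them, the 4 genes were tested 44 times, 11 comparisons each. They were called enriched 11 times and depleted 4 times (quasi-likelihood test of edgeR over all genes, with a Benjamini-Hochberg adjusted p under 0.05 and a change of more than 1 on the log2 scale). The genes differed in how the calls fell. CG5493 had 2 depleted and 0 enriched calls, CG34190 was enriched in 1 comparison and depleted in 2, and CG43740 was enriched in 3 and CG14989 in 7, with no depletion of the last pair. The share of all 17109 genes called in the same comparison and direction is given beside each first call.

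The intermediate column at 6-8h, sorted with the GFP line, was not used to choose any of the genes. There CG43740 was enriched 9.16-fold (log2 3.19 ± 0.44, adjusted p = 4.29e-05) and CG34190 8.87-fold (3.15 ± 0.78, adjusted p = 0.0228), while 0.684% of all genes were called enriched in this comparison. For both, the positive libraries lay above the negative ones: CG43740 had 3.8 and 4.86 TPM and CG34190 2.01 and 2.0 TPM in Ind-neg cells. CG5493 had 5.57 and 8.2 TPM in Ind-pos and 1.7 and 1.59 TPM in Ind-neg cells, and its log2 fold change of 2.16 ± 0.84 did not pass (adjusted p = 0.294), but did with the 4 libraries of the comparison alone (2.01, adjusted p = 0.0165). The call of CG34190 was lost without any 1 of the 4 libraries (log2 2.98 to 3.32, adjusted p = 0.0584 to 0.269) and with a replicate block (adjusted p = 0.0555). The call of CG43740 was kept in each of these fits. The 4 listed markers of trachea and salivary gland did not move together. In Ind-pos against Ind-neg cells eyg had 21.0 and 24.6 against 4.97 and 5.31 TPM (2.22 ± 0.41, adjusted p = 0.00114). For sage, 16.0 and 22.3 against 4.77 and 4.4 TPM did not pass (1.9 ± 0.54, adjusted p = 0.0593). Lower in Ind-pos cells were btl (-2.23 ± 0.36, adjusted p = 0.00026) and trh (-1.07 ± 0.31, adjusted p = 0.0596). The 4 summed to 64.9 and 78.2 TPM in Ind-pos and 94.5 and 89.6 TPM in Ind-neg cells, none at 0. The sulfotransferase gene pip had 207 and 234 against 50.4 and 42.1 TPM (2.37 ± 0.46), and PH4alphaSG1 had 1.79 ± 1.0. Both were picked for likeness to CG5493 and CG34190 over these groups, so their values are a description. The part of these genes was not tested. The log2 fold change at 6-8h minus that at 4-6h was -2.87 ± 1.16 for CG5493, -1.57 ± 1.03 for CG34190 and -1.15 ± 0.58 for CG43740, values that rest on the comparison that chose the genes and are given without a test.

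None of these 3 genes was called in the ventral column. At 6-8h the log2 fold change in Vnd cells was -0.45 ± 0.81 for CG5493, 0.21 ± 0.72 for CG34190 and 0.18 ± 0.41 for CG43740. The receptor level was 14.4 and 10.2 TPM in these Vnd-pos and 8.85 and 8.68 TPM in these Vnd-neg libraries. CG5493 and CG34190 lay below this level in each library, and CG43740 above it. In the 6-8h Ind libraries the receptor level ran from 0.363 to 1.53 TPM. Ind and Vnd cells at 6-8h also came from different lines with different reporters. The difference between the Ind and the Vnd comparison at 6-8h passed the test for CG43740 (log2 3.02 ± 0.59, adjusted p = 0.0197, a difference called in this direction for 0.0468% of all genes). It was 2.61 ± 1.16 for CG5493 and 2.94 ± 1.04 for CG34190, and neither passed (adjusted p = 1.0 for both). The call of CG43740 was lost without 1 of 6 of the 8 libraries (Ind-neg replicate 1 or 2, Ind-pos replicate 1, Vnd-neg replicate 2, Vnd-pos replicate 1 or 2), with log2 values from 2.81 to 3.27 and adjusted p from 0.0838 to 0.225. It stayed without Ind-pos replicate 2 and without Vnd-neg replicate 1.

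At 4-6h CG34190 had 15.2 and 15.5 TPM in Vnd-pos and 5.19 and 10.3 TPM in Vnd-neg cells, and CG43740 17.8 and 16.2 TPM against 7.96 and 8.96 TPM. The log2 fold changes were 0.86 ± 0.73 and 0.78 ± 0.41, and neither passed the test (adjusted p = 1.0 and 0.856). CG5493 had 9.19 and 1.71 TPM in Vnd-pos cells, on either side of the 3.4 and 3.04 TPM of Vnd-neg cells. The receptor level of these Vnd-pos libraries was 9.88 and 6.4 TPM, above CG5493 and below CG34190 and CG43740 in each.

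CG14989 was enriched in both columns. In 6-8h Vnd-pos cells it had 124 and 141 TPM against 28.7 and 28.9 TPM in Vnd-neg cells, 4.76-fold in the fit (log2 2.25 ± 0.4, adjusted p = 0.00902), where 0.0877% of all genes were called enriched. In the intermediate column it had 24.2 and 22.7 TPM against 8.18 and 5.94 TPM at 4-6h (log2 1.56 ± 0.39, adjusted p = 0.0146) and 56.4 and 47.1 TPM against 15.8 and 14.4 TPM at 6-8h (2.12 ± 0.4, adjusted p = 0.00168). Of all genes, 1.16% were called enriched in the 4-6h Ind comparison, and 199 enriched calls against 570 depleted ones became 375 against 494 with median-of-ratios size factors. The Ind and Vnd log2 fold changes at 6-8h differed by -0.14 ± 0.54 (adjusted p = 1.0). The mean level was 51.7 TPM in 6-8h Ind-pos and 133 TPM in 6-8h Vnd-pos cells, but 92.1 and 82.5 CPM with ranges that overlapped. The TMM factors within CPM were 0.5697 and 0.6957 for these Ind-pos and 2.0259 and 1.7203 for these Vnd-pos libraries. The order of these groups therefore depends on the scaling.

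These column calls of CG14989 depended on single libraries. The 4-6h Ind call was lost without any 1 of its 4 libraries (log2 1.29 to 1.83, adjusted p = 0.0526 to 0.391). The 6-8h Ind call was lost without Ind-neg replicate 1 (2.34, adjusted p = 0.05), Ind-neg replicate 2 (1.98, adjusted p = 0.121) or Ind-pos replicate 1 (1.71, adjusted p = 0.0823). The 6-8h Vnd call was lost without Vnd-neg replicate 1 (2.3, adjusted p = 0.501), Vnd-neg replicate 2 (2.14, adjusted p = 0.69) or Vnd-pos replicate 2 (1.98, adjusted p = 0.575), and with a replicate block (2.24, adjusted p = 0.0507). A sum of neuron markers, most of it elav, was higher in the positive cells of the same comparisons, but also where CG14989 was not called. The 4 genes elav, nSyb, Syt1 and brp, none at 0 in any column library, summed to 803 and 912 TPM in 4-6h Vnd-pos cells against 235 and 228 TPM in Vnd-neg cells, and to 560 and 543 TPM in 4-6h Ind-pos cells against 157 and 129 TPM in Ind-neg cells. Of these sums elav alone gave 537 and 622 TPM in 4-6h Vnd-pos and 505 and 504 TPM in 4-6h Ind-pos cells. It is not limited to neurons here, with 1520 and 1540 TPM in 4-6h Pros-pos cells. The sum was 1690 and 1710 TPM in these Pros-pos and 197 and 191 TPM in Pros-neg cells, where CG14989 was not called (0.6 ± 0.38). At 6-8h it was 739 and 860 TPM in Vnd-pos against 225 and 205 TPM in Vnd-neg cells. In 6-8h Ind-pos cells it was 811 and 682 TPM, against 234 and 214 TPM in Ind-neg cells. The paper describes transient elav expression across neurogenic cells as differentiation starts. The part of these markers in the values of CG14989 was not tested.

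**Figure D2:**
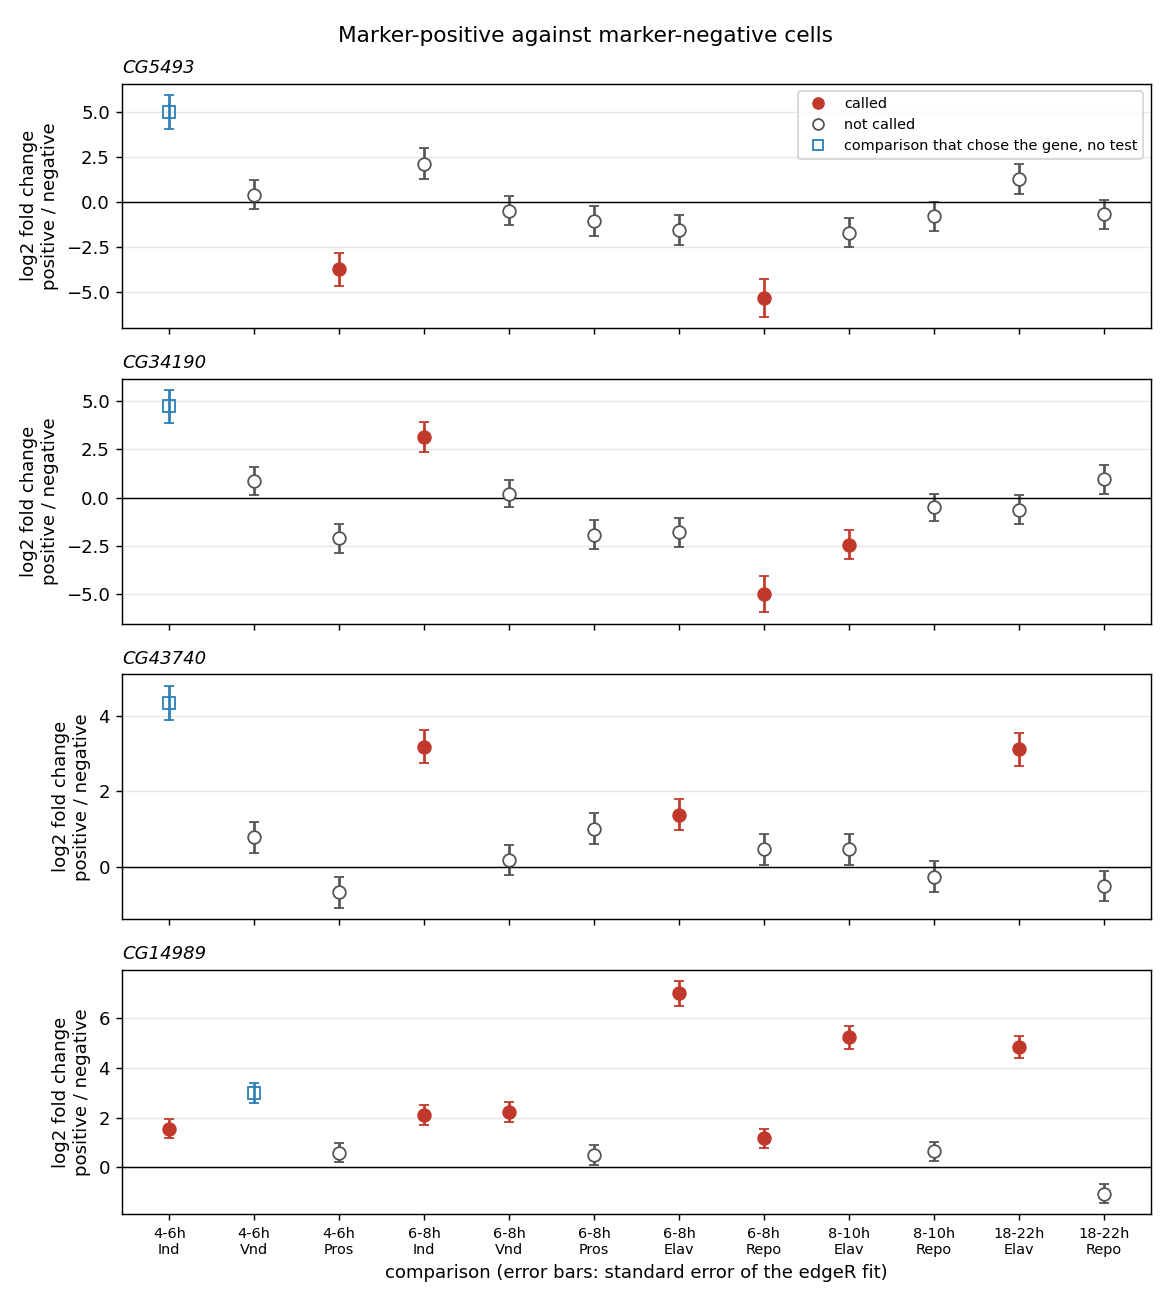
Log2 fold change of marker-positive against marker-negative cells for the 4 genes in the 12 comparisons. Points are edgeR estimates with their standard error, filled red where called and open where not, and blue squares are the comparisons that chose the gene, from 2.99 for CG14989 to 5.03 for CG5493; CG14989 lies above 0 in 11 of the 12 comparisons.

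In neurons CG14989 had its largest differences. At 6-8h it was 129-fold higher in Elav-pos than in Elav-neg cells (log2 7.01 ± 0.5, adjusted p = 5.34e-11), where 9.34% of all genes were called enriched. Without Elav-neg replicate 1 the log2 value was 7.97, and the call was kept in each of the fits tried. At 8-10h, with 8.54 and 15.6 TPM in Elav-neg cells, it was 37.7-fold higher (5.24 ± 0.46, adjusted p = 4.2e-09; 5.71% of all genes enriched), and at 18-22h, with 37.6 and 77.4 TPM in Elav-neg cells, 28.6-fold higher (4.84 ± 0.45, adjusted p = 6.82e-09; 9.09% of all genes enriched). The level in neurons rose 3.84-fold from 8-10h to 18-22h in the mean of the positive libraries, while the log2 fold change against Elav-neg cells differed by -0.4 ± 0.54 between these times (adjusted p = 1.0) and by -1.78 ± 0.55 between 6-8h and 8-10h (adjusted p = 0.352). The latter difference passed with DESeq2 (-1.66, adjusted p = 0.0243) and was -2.71 without 6-8h Elav-neg replicate 1 (adjusted p = 0.0547).

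CG43740 was also called enriched in neurons. It was enriched 2.6-fold in 6-8h Elav-pos cells (14.0 and 22.5 TPM against 3.6 and 9.46 TPM; log2 1.38 ± 0.41, adjusted p = 0.0169) and 8.67-fold in 18-22h Elav-pos cells (52.7 and 42.4 TPM against 1.84 and 9.85 TPM; 3.12 ± 0.44, adjusted p = 3.91e-06). At 8-10h it had 9.81 and 25.9 TPM in Elav-pos and 6.64 and 12.4 TPM in Elav-neg cells, which overlapped. In CPM, which holds the TMM factors, the fractions did not overlap (14.3 ± 1.02 against 10.3 ± 1.01 CPM). The difference did not pass (0.47 ± 0.41, adjusted p = 0.672). The enrichment at 18-22h exceeded that at 8-10h by log2 2.65 ± 0.59 (adjusted p = 0.0304), a difference called in this direction for 0.386% of all genes. Within each 8-10h fraction the library higher in TPM was replicate 2, whose receptor level was also higher (15.4 against 0.69 TPM in Elav-pos, 7.47 against 0.479 TPM in Elav-neg cells).

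The 6-8h call of CG43740 was lost without Elav-neg replicate 1 (log2 0.85, adjusted p = 0.217) or Elav-pos replicate 2 (0.93, adjusted p = 0.26) and with only the 4 libraries of the comparison (1.43, adjusted p = 0.264), and without Elav-neg replicate 2 it was 2.41 (adjusted p = 0.000934). In that comparison replicate 1 and replicate 2 are different lines, and in each line the positive library lay above the negative one. The call of the difference between 18-22h and 8-10h was lost in 7 of the 8 fits without 1 of its libraries, with log2 values from 2.35 to 2.8 and adjusted p from 0.0519 to 0.149. It was kept without 18-22h Elav-neg replicate 2 only (3.18).

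CG5493 and CG34190 had low levels in Pros-pos cells and in early glia. In 4-6h Pros cells CG5493 had 4.47 and 3.37 TPM in Pros-neg and 0.534 and 0.0 TPM in Pros-pos cells, the latter from 10 reads in all, a fall of 3.71 ± 0.92 on the log2 scale (adjusted p = 0.0132; 2.18% of all genes depleted). From the summed reads (10 positive, 199 negative), scaled by library totals and TMM factors, the negative cells had 12.1 times the positive ones (95% exact interval 6.45 to 25.6, counting error only). The call was lost without Pros-neg replicate 1 (-3.67, adjusted p = 0.0525), Pros-neg replicate 2 (-3.8, adjusted p = 0.0654) or Pros-pos replicate 2 (-2.78, adjusted p = 0.176), and with only the 4 libraries (adjusted p = 0.122). Without Pros-pos replicate 1 the positive cells had no read, so that the fitted value (-9.36) depends on the prior count. CG34190 had 14.0 and 8.6 TPM in Pros-neg and 2.7 and 1.5 TPM in Pros-pos cells (-2.1 ± 0.76, adjusted p = 0.106), which passed with the receptor level as a covariate (-1.96, adjusted p = 0.0433), with only the 4 libraries (-2.19, adjusted p = 0.043) and with DESeq2 (-2.17, adjusted p = 0.0156).

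In 6-8h Repo-pos cells both genes were nearly without reads. CG5493 had 1 read in each positive library against 73 reads in the negative ones. Scaled by library totals and TMM factors, the ratio of negative to positive cells was 43.2 (95% exact interval 11.5 to 363, counting error only). Its fitted log2 fold change was -5.3 ± 1.06 (adjusted p = 0.00054). CG34190 had 4 reads and no read in the positive libraries against 117 reads in the negative ones, a ratio of 34.6 (13.2 to 129) with the same scaling. Its fitted value was -5.01 ± 0.93 (adjusted p = 0.000261). Of all genes, 10.4% were called depleted in this comparison, and the split of 1260 enriched and 1780 depleted calls became 1845 and 1105 with median-of-ratios size factors, under which both genes were still called. With only the 4 libraries neither call was kept (adjusted p = 0.193 for CG5493 and 0.198 for CG34190). Without Repo-pos replicate 2 CG34190 had -3.55 (adjusted p = 0.0165), and without Repo-pos replicate 1 it had no read in glia and a value of -9.28 that depends on the prior count.

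In 8-10h glia the levels were higher. CG5493 had 2.56 and 8.36 TPM and CG34190 4.21 and 14.3 TPM in Repo-pos cells, on either side of their Repo-neg libraries (5.3 and 6.08 TPM, 7.81 and 8.6 TPM). In CPM, which holds the TMM factors, both Repo-pos libraries of CG5493 (1.23 and 2.37) lay below the Repo-neg ones (2.88 and 3.32). The difference did not pass (log2 -0.78 ± 0.81, adjusted p = 0.885). The log2 fold change at 8-10h exceeded that at 6-8h by 4.51 ± 1.29 for CG5493 (adjusted p = 0.319) and 4.5 ± 1.16 for CG34190 (adjusted p = 0.204, with DESeq2 4.42 and adjusted p = 0.0428). The receptor level of the 8-10h Repo-pos libraries was 4.42 TPM in replicate 1 and 18.7 TPM in replicate 2, the same order as for both genes. In each of these libraries both genes lay below the receptor level. Whether such low levels reflect expression in glia was not tested. CG14989 went the other way at 6-8h, with 46.1 and 40.2 TPM in Repo-pos and 12.9 and 14.5 TPM in Repo-neg cells (log2 1.17 ± 0.39, adjusted p = 0.0349), where 7.36% of all genes were called enriched. The 4 neuron markers summed to 470 and 326 TPM in these Repo-pos cells and to 228 and 267 TPM in Repo-neg cells. Of this, elav gave 383 and 240 TPM in Repo-pos and 215 and 249 TPM in Repo-neg cells, and the part of the markers was not tested. This call was lost without Repo-neg replicate 1 (0.87, adjusted p = 0.293) or Repo-pos replicate 1 (0.86, adjusted p = 0.196), with counts from length-scaled TPM (1.08, adjusted p = 0.0521) and with a replicate block (1.15, adjusted p = 0.0624), and it was 1.83 without Repo-neg replicate 2 and 1.97 without Repo-pos replicate 2. At 18-22h the order was turned, with 180 and 217 TPM in Repo-pos and 525 and 403 TPM in Repo-neg cells. The neuron markers summed to 1000 and 775 TPM in these Repo-neg and 568 and 618 TPM in Repo-pos cells, and their part was not tested. The difference of CG14989 (-1.05 ± 0.39, adjusted p = 0.123) passed with DESeq2 (-1.04, adjusted p = 0.0132), with median-of-ratios size factors (-1.04, adjusted p = 0.0478) and with the receptor covariate (-1.08, adjusted p = 0.0437).

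In 8-10h neurons CG34190 was depleted. It had 1.28 and 11.4 TPM in Elav-pos against 16.4 and 27.0 TPM in Elav-neg cells (log2 -2.44 ± 0.76, adjusted p = 0.0282; 7.8% of all genes depleted). The fractions did not overlap, but the positive libraries differed widely, and the higher one was replicate 2 with the receptor level of 15.4 TPM. The call was lost without Elav-neg replicate 1 (-2.41, adjusted p = 0.108), without Elav-pos replicate 1 (-1.77, adjusted p = 0.233), with median-of-ratios size factors (-2.13, adjusted p = 0.0865) and with only the 4 libraries (adjusted p = 0.433), and without Elav-pos replicate 2 it was -3.74 (adjusted p = 0.0128). With the receptor level as a covariate it was kept. Of the listed markers of trachea and salivary gland, eyg (log2 -1.59 ± 0.4, adjusted p = 0.00532) and btl (-2.21 ± 0.36, adjusted p = 5.4e-05) were also depleted. Neither sage (-0.87 ± 0.53, adjusted p = 0.388) nor trh (-0.04 ± 0.3) passed. The pip gene had -2.47 ± 0.46, with 236 and 228 TPM in Elav-neg cells. It was picked for its likeness to CG34190 over these same groups, so this value is a description. The sum of trh, btl, sage and eyg, markers of trachea and salivary gland with none at 0, was 110 and 129 TPM in Elav-neg and 69.3 and 126 TPM in Elav-pos cells, and their part was not tested. At 6-8h CG34190 had 5.25 and 8.99 TPM in Elav-neg and 3.14 and 1.21 TPM in Elav-pos cells (-1.8 ± 0.75, adjusted p = 0.105), which passed with that covariate (-2.02, adjusted p = 0.0203).

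The remaining comparisons gave no call for these genes. In 18-22h neurons CG34190 had 7.45 and 1.44 TPM in Elav-pos and 1.33 and 12.8 TPM in Elav-neg cells (log2 -0.62 ± 0.73, adjusted p = 0.743). The receptor level was 10.0 and 3.17 TPM in these Elav-pos libraries and 0.13 and 14.0 TPM in the Elav-neg ones, so the higher library of each fraction was the same for both measures. CG5493 had 4.39 and 2.75 TPM in the Elav-pos and 0.742 and 1.96 TPM in the Elav-neg cells (1.29 ± 0.83, adjusted p = 0.334). Both of these Elav-pos values lay below the receptor level of their library. The higher library of each fraction was again the one with the higher receptor level. At 6-8h CG5493 had 1.78 and 0.671 TPM against 2.47 and 4.07 TPM (-1.55 ± 0.83, adjusted p = 0.241). In Pros cells CG43740 had a log2 fold change of -0.68 ± 0.41 at 4-6h and 1.01 ± 0.41 at 6-8h (adjusted p = 0.443 and 0.243). CG14989 had 55.2 and 74.3 TPM in 4-6h Pros-pos and 53.3 TPM in both Pros-neg libraries (0.6 ± 0.38, adjusted p = 0.475), and 38.3 and 29.8 TPM against 28.3 and 21.2 TPM at 6-8h (0.51 ± 0.39, adjusted p = 0.796).

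Across the 24 group means of log2(TPM + 1), CG5493 and CG34190 were the most alike of the 4 genes (Pearson r 0.894), followed by CG5493 and CG43740 (0.661), CG43740 and CG14989 (0.584) and CG34190 and CG43740 (0.516). CG14989 was unlike CG5493 (-0.0417) and CG34190 (-0.0928). The groups share libraries of the same sorts, and 3 of the genes were chosen for 1 of these groups, so these values are a description.

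**Figure D3:**
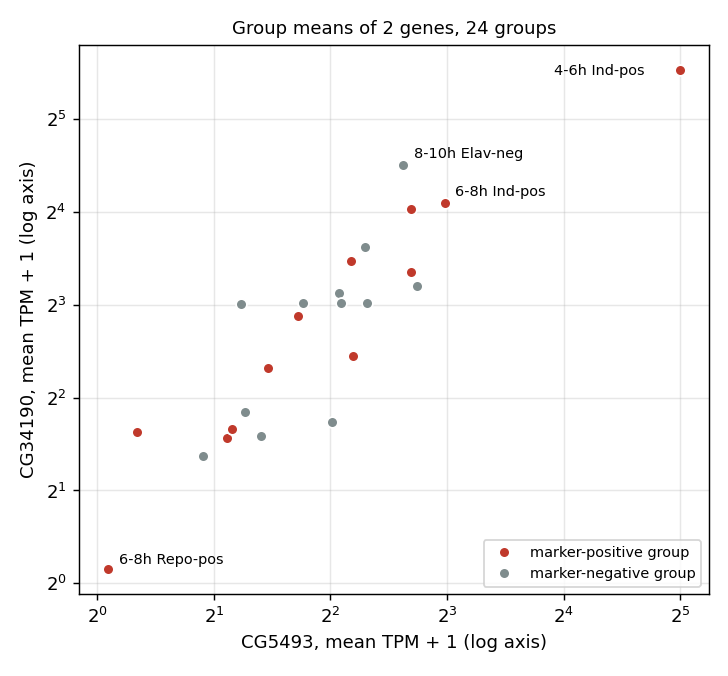
Mean TPM + 1 of CG5493 (x axis) and CG34190 (y axis) in the 24 groups, on log axes, with marker-positive groups in red and marker-negative groups in grey. Both genes are highest in 4-6h Ind-pos cells (30.9 and 45.3 TPM) and lowest in 6-8h Repo-pos cells (0.0643 and 0.11 TPM).

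The protein-coding genes most like each gene over the 24 groups, among 13689 with at least 5 TPM in 1 group, were the following. For CG5493 they were CG34190 (r 0.894), PH4alphaSG1 (0.826) and pip (0.824), and for CG34190 they were PH4alphaSG1 (0.91), CG5493 (0.894) and pip (0.883). PH4alphaSG1 is named for a prolyl 4-hydroxylase subunit of the salivary gland and pip encodes a sulfotransferase that is made in the embryonic salivary gland, among other places. For CG43740 the nearest were the Hox gene Dfd (0.773) and the homeobox genes unc-4 (0.745) and ey (0.74). With a pseudocount of 0.1 tio (0.744) took the place of ey, and over the 48 libraries ey (0.73) came first and tio (0.727) took the place of unc-4. For CG14989 they were CG4467 (0.977), nAChRbeta1, a subunit of the nicotinic acetylcholine receptor (0.977), and robo3, a receptor for the midline signal Slit (0.975), all highest in 18-22h Elav-pos cells, and over the 48 libraries CG43347 (0.968) took the place of nAChRbeta1.

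Since PH4alphaSG1 and pip stood beside CG5493 and CG34190, markers of the salivary gland and trachea are given for the same libraries. The sum of trh, btl, sage and eyg, none at 0, was 64.8 and 63.3 TPM in 4-6h Ind-pos and 53.0 and 44.8 TPM in Ind-neg cells. The salivary gland gene sage had 25.1 and 28.3 TPM in Ind-pos against 4.0 and 3.89 TPM in Ind-neg cells (log2 2.43 ± 0.55, adjusted p = 0.00578). For eyg it was 20.2 and 19.9 TPM against 5.03 and 3.03 TPM (2.24 ± 0.41, adjusted p = 0.000665). The other listed markers went the other way. The tracheal gene btl had 6.21 and 3.62 TPM against 22.0 and 23.0 TPM, and trh 13.4 and 11.5 TPM against 22.1 and 14.8 TPM (-0.65 ± 0.3, adjusted p = 0.318). The pip gene had 317 and 385 TPM in Ind-pos and 34.0 and 19.0 TPM in Ind-neg cells. PH4alphaSG1 had 17.5 and 18.8 TPM against 2.11 and 1.72 TPM. Both were picked for likeness over these groups, so their values are a description. The part of these genes in the values of CG5493 and CG34190 was not tested.

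The 2 nearest protein-coding genes on each side are given in the comparison that chose the gene between them, so that their smaller fold changes are a description and were largely fixed by that choice. CG5493 lay between genes with log2 fold changes of -0.87 ± 0.35 (CG5323), -0.84 ± 0.37 (mRpS28), 0.16 ± 0.3 (Atg7) and -0.86 ± 0.57 (CG5335) in the 4-6h Ind comparison, beside its own 5.03. The closest gene to CG34190, Vha16-4, ends 103 bases away and had 4.05 and 0.38 TPM in Ind-pos and 0.811 and 0.134 TPM in Ind-neg cells (2.06 ± 1.7), and the other 3 neighbours ranged from -0.17 ± 0.32 (mute) to 0.65 ± 0.65 (Pkc53E). The neighbours of CG43740 ranged from -2.03 ± 0.48 (Gip) to 0.23 ± 1.49 (CG15306), and those of CG14989 in the 4-6h Vnd comparison from -0.06 ± 0.54 (Faa) to 0.82 ± 0.35 (wit, a receptor of the BMP pathway).

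The genes on the opposite strand were low beside CG5493 and CG34190. CG5327 had 2.69 and 4.28 TPM and CG15614 1.21 and 0.978 TPM in 4-6h Ind-pos cells, against 1.33 and 0.368 TPM and 0.273 and 0.0 TPM in Ind-neg cells. Gad1 was higher, with 56.5 and 61.3 TPM in 4-6h Vnd-pos and 8.3 and 10.3 TPM in Vnd-neg cells (2.48 ± 0.72), and like CG14989 it was highest in 18-22h Elav-pos cells, with 300 and 228 TPM. How far reads of one strand entered the value of the other was not tested.

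**Figure D4:**
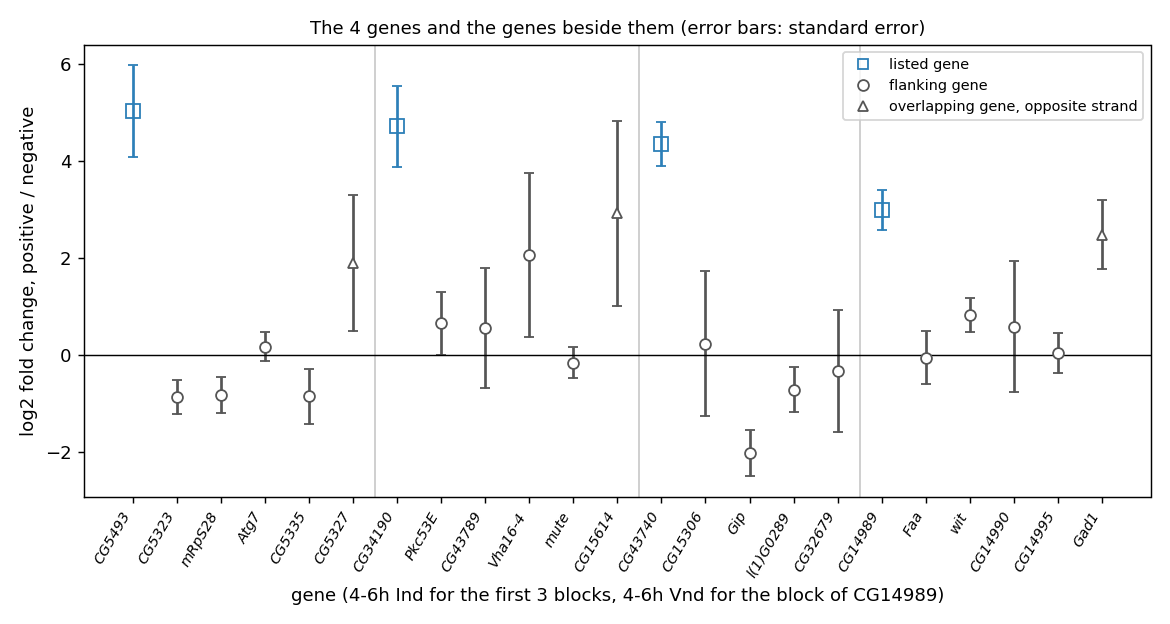
Log2 fold change of the 4 genes (squares), their 2 nearest protein-coding genes on each side (circles) and the genes that overlap them on the opposite strand (triangles), with standard errors, in the 4-6h Ind comparison for CG5493, CG34190 and CG43740 and in the 4-6h Vnd comparison for CG14989. Flanking genes lie between -2.03 (Gip) and 2.06 (Vha16-4), and Gad1 at 2.48.

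Transcript shares are the authors' TPM per transcript as a percent of the gene's TPM. In 4-6h Ind-pos cells transcript RB gave 98.0% of the TPM of CG5493 and RA 1.96%, and in 6-8h Ind-pos cells RB gave 100%. Its first exon lies further upstream than that of the other 3 transcripts, all of which encode the same frame. For CG43740 the 3 transcripts were shared out as 53.6% RB, 23.2% RA and 23.2% RC in 4-6h Ind-pos cells as 30.0%, 35.0% and 35.0% in 6-8h Ind-pos cells and as 44.9%, 27.6% and 27.6% in 18-22h Elav-pos cells. The RB share of a single library ran from 45.3% to 66.9% at 4-6h and from 27.7% to 32.6% at 6-8h, a description without a test. RA and RC have the same number of exon bases (1878), and their shares were nearly the same in each group, so the files hardly separate them. For CG14989, RF (171 codons) gave 53.5% and RE (246 codons) 46.5% in 4-6h Vnd-pos cells, and 56.5% and 43.5% in 18-22h Elav-pos cells, while RD gave 0.01% or less in every library.

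A list of 28 genes was drawn mainly from the columns, their EGF signal and the neuroblasts formed there. It was made with earlier results of these data known, so its counts are a description. It holds ind and vnd, whose enhancers drove the sorting reporters, and ey, Vmat and wrapper, which ranked high in the 4-6h comparisons. Of the 28 genes, 8 were enriched and 4 depleted in 4-6h Ind-pos cells (median log2 fold change 0.11, over all genes -0.06), where 3.33% of all genes were called depleted. Among the enriched were ind (2.16 ± 0.35) and ey (4.09 ± 0.4), a Pax6 transcription factor, and among the depleted the midline gene sim (-2.2 ± 0.4) and vn, an EGF receptor ligand (-2.17 ± 0.44). In 4-6h Vnd-pos cells 5 were enriched and 0 depleted (median 0.38, over all genes 0.03; 0.555% of all genes enriched), among them vnd (1.68 ± 0.35), sim (1.71 ± 0.39) and Vmat, the vesicular monoamine transporter (3.33 ± 0.51). With DESeq2 12 were enriched and 1 depleted there, while calls over all genes went from 95 to 374 enriched and from 22 to 103 depleted. At 6-8h 10 were enriched and 2 depleted in Ind-pos cells (median 0.49, over all genes 0.13; 1.65% of all genes depleted), with ind at 4.86 ± 0.39 and D, a Sox-domain factor, at 2.7 ± 0.4. In 6-8h Vnd-pos cells 5 were enriched (median 0.65, over all genes 0.0, with 0.0877% of all genes enriched), among them vnd (2.75 ± 0.37) and sog (1.96 ± 0.34). With median-of-ratios size factors 12 were enriched there, while enriched calls over all genes went from 15 to 78. Enrichment of the list was not particular to the column cells. In 4-6h Pros-pos cells 11 were enriched and 0 depleted (median 0.89, over all genes -0.2, with 3.6% of all genes enriched). In 6-8h Pros-pos cells 13 were enriched and 1 depleted (median 1.24, over all genes -0.07, with 2.27% of all genes enriched and 1.3% depleted). Both medians lay above those of the column comparisons. The largest fold change on this list in the 4-6h Ind comparison was that of ey. It lay below those of CG5493, CG34190 and CG43740, an order that the choice of these genes had fixed.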

How the data were processed

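The authors quantified stranded paired-end reads with Salmon 0.8.1 against a BDGP release 6 transcriptome indexed with RSEM 1.3.0, with bias correction. Their deposited files give estimated counts (not normalized) and TPM (scaled to the library) for 34428 transcripts. Estimated counts and TPM were summed per gene with the Ensembl BDGP6.54 annotation (305 transcripts unmatched, 0.241% to 0.502% of reads), and counts were rounded. The authors also deposited 12 tables of DESeq2 comparisons, which were not used.

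A fit in which each of the 24 groups had its own mean was made over the 48 libraries in edgeR 4.0.16 (R 4.3.3, limma 3.58.1): TMM factors, filterByExpr (17109 genes kept, the 4 genes among them), glmQLFit and glmQLFTest, Benjamini-Hochberg over all genes. A call needed an adjusted p under 0.05 and a change of more than 1 on the log2 scale in either direction. Alternatives included DESeq2 1.42.0, median-of-ratios size factors, counts from length-scaled TPM, no filter, a replicate block, the receptor level as a covariate, only the 4 libraries of a comparison, and leaving out each library. The steps were tested on simulated data. Likeness used Pearson correlation of log2(TPM + 1), Python 3.11.15. The named genes were the 4 genes, ind and vnd, for each gene the 3 most alike, its 2 neighbours on each side, those next in rank, and called column genes; the overlapping genes, sage, eyg, btl, trh and the neuron markers were added after their values were seen. The genes and lists were chosen with earlier results of these data known. Replicates are biological duplicates according to the methods, with 2 per group, so p-values rest on a spread pooled over groups. Reads carry no molecular identifiers, and intervals cover counting error only. At 6-8h Elav the replicate number stands for the line and so pairs the libraries (correlation of deviations 0.523).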

Additional observations from a re-analysis of the deposited data

Results flagged for a closer look

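In 2 contrasts the enrichment of CG43740 differed between groups by the edgeR test: it was higher by 2.65 on the log2 scale in 18-22h than in 8-10h Elav cells, and by 3.02 in 6-8h Ind than in 6-8h Vnd cells. In the other pairs given here both positive libraries lay, in CPM, above both negative ones in one comparison and below them in the other (in TPM the 8-10h pair of CG43740 overlapped), and the difference itself was not tested. The pairs were picked for this order, so the differences are a description, given without an SE. For CG5493 and CG34190 those with 6-8h Repo cells rest on 2 and 4 reads in the positive libraries. Some fold changes in these pairs are small beside their SE, such as 0.21 ± 0.72 for CG34190 in 6-8h Vnd cells. For CG43740 this holds for 0.47 ± 0.41 in 8-10h Elav and -0.26 ± 0.41 in 8-10h Repo cells.

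For CG5493 the log2 fold change in 6-8h Ind cells exceeded that in 6-8h Elav cells by 3.71 and that in 6-8h Repo cells by 7.46. Its value in 6-8h Elav cells was below that in 18-22h Elav cells (difference -2.84), and its value in 18-22h Elav cells exceeded that in 18-22h Repo cells by 1.94. In both 18-22h Elav-pos libraries CG5493 lay below the receptor level.

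For CG34190 the value in 4-6h Vnd cells exceeded that in 4-6h Pros cells by 2.96. In 6-8h Ind cells it exceeded that in Pros cells by 5.06, in Elav cells by 4.95 and in Repo cells by 8.16, and in 6-8h Vnd cells by 2.12, 2.01 and 5.22. Between 6-8h and 18-22h Repo cells the difference was -5.95.

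For CG43740 the value in 4-6h Vnd cells exceeded that in 4-6h Pros cells by 1.46, that in 8-10h Elav cells exceeded that in 8-10h Repo cells by 0.73, and that in 18-22h Elav cells exceeded that in 18-22h Repo cells by 3.63. For CG14989 the value in 6-8h Repo cells exceeded that in 18-22h Repo cells by 2.22, and that in 18-22h Elav cells exceeded that in 18-22h Repo cells by 5.89.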

How the results depend on the processing

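Of 207 alternative values of the 17 called differences, 159 kept the call, 48 kept the direction without passing, and 0 changed direction. Enriched calls of the 4 genes numbered 11, and 9 to 11 when single libraries were left out. Depleted calls numbered 4 (3 to 4), but 7 with the receptor covariate and 1 with only the 4 libraries of a comparison, a setting in which no gene passed in 18-22h Elav, so that the loss of the calls there (CG43740 and CG14989) says nothing of them. Called contrasts between times and populations numbered 2 (1 to 2), and 5 with DESeq2, which gave no adjusted p for 13 further tests. With the replicate block the enriched calls were 8, the depleted 4 and the contrasts 2. Outside 6-8h Elav the replicate numbers do not pair the libraries by any label, and the correlation of deviations ran from -0.552 (18-22h Elav) to 0.722 (8-10h Elav). Of the column list, median-of-ratios factors gave 11 enriched and 1 depleted in 4-6h Vnd, 4 depleted in 6-8h Ind, and 12 enriched and 1 depleted in 6-8h Vnd; DESeq2 gave 12 and 1, 4, and 13 and 1; the block gave 1 depleted in 4-6h Vnd. Calls over all genes also rose with median-of-ratios factors and with DESeq2. Enriched calls went from 95 to 265 and 374 in 4-6h Vnd and from 15 to 78 and 144 in 6-8h Vnd. Depleted calls went from 22 to 56 and 103 in 4-6h Vnd. They went from 282 to 361 and 466 in 6-8h Ind and from 9 to 40 and 87 in 6-8h Vnd. Median-of-ratios factors moved the median of all genes by up to 0.37 (6-8h Repo). The ratio of the highest to the second group by CPM was 1.41 for CG43740, with 6-8h Ind-pos second, and 2.14 for CG14989.

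Among differences that did not pass, some changed sign. For CG5493 this was the contrast of 8-10h with 6-8h Elav cells (0.01 with median-of-ratios factors; -0.62 to 0.55 without single libraries), 18-22h with 8-10h Repo cells (-0.05; -0.25 to 0.81), 4-6h Vnd (-1.01 to 1.14) and 6-8h with 4-6h Vnd (-1.59 to 0.56). For CG34190 it was 6-8h with 4-6h Pros (-0.01 with the block; -0.99 to 0.81), 18-22h Elav (-1.75 to 0.5) and 8-10h with 6-8h Elav (-1.95 to 0.07). For CG43740 it was 18-22h with 8-10h Repo (-0.47 to 0.17), and for CG14989 6-8h with 4-6h Pros (-0.54 to 0.25), 18-22h with 8-10h Elav (-0.85 to 0.01) and Ind minus Vnd at 6-8h (-0.55 to 0.25). The cause of these changes was not tested. A list of cysteine and taurine genes and its alternatives were not run, since no source used here annotates CG5493. With 2 libraries per group the spread is estimated over all groups, and a lone library left by leaving out its replicate is assumed to vary like the rest.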
